A study of Rattus norvegicus with 4 samples.

Results

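The RNA polymerase and Mediator subunits were taken as the protein-coding genes of the rat count table whose symbol is Polr1, Polr2 or Polr3 followed by a letter, or Med followed by a number. This rule found 57 of the 34773 genes in the table, of which 27 encode polymerase subunits and 30 encode Mediator subunits. The rat ESC line DA-5-3GFP, which carries a *Rex1*-GFP reporter, served as WT and gave 1 poly(A) RNA library. Each of 3 *Thop1*-KO subclones (#1, #2 and #3), made in that reporter line with Cas9, gave 1 library as well, so every subclone is a single clone and all 4 libraries share the reporter. Per the study's methods, the rat ESCs grew in 2i/LIF over feeder cells. The study's text treats DA-5-3 as a diploid line, whereas the design text deposited with the libraries calls the cells haploid.

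Each nuclear RNA polymerase is a large enzyme with its own catalytic core. Pol I transcribes the precursor of ribosomal RNA, Pol II transcribes protein-coding genes, and Pol III transcribes tRNAs and other small RNAs. A small set of subunits is common to all of them, and another pair serves both Pol I and Pol III. Mediator is the coactivator that sits between transcription factors and Pol II, built from head, middle and tail modules on the *Med14* backbone, with a kinase module that binds reversibly. ESCs depend on Mediator at the enhancers of their pluripotency genes, and *Med12* and *Med1* are the subunits best known for this role.

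Promoter sequences are shown for 7 of the 8 members that passed the test described below, so that each change can be set beside the DNA upstream of its gene. RefSeq's promoter table (assembly GRCr8) had an entry for 48 of the 57 members, and *Med1*, *Med15*, *Med18*, *Med27*, *Med30*, *Polr2c*, *Polr2k* and *Polr3d* were among those with none. The 150 bases before the annotated start are printed 5′ to 3′ on the gene's own strand. Capitals mark exact matches, on either strand, to the letters searched for the ETS motif (CCGGAAG), the NRF1 motif (GCATGCGC), the YY1 motif (ATGGCGGC), the E-box (CACGTG), the CCAAT box (CCAAT), the GC box (GGGCGG) and the TATA box (TATAAA). The coordinates with these sequences are those of GRCr8. All other coordinates below are those of the deposited table, whose build is not given in the sources used here.
*Polr2h* (chr11:93700872-93701021, minus): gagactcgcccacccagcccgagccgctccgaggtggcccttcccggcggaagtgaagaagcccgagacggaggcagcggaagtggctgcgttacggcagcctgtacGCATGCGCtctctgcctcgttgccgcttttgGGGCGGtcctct
*Med7* (chr10:31354887-31355036, plus): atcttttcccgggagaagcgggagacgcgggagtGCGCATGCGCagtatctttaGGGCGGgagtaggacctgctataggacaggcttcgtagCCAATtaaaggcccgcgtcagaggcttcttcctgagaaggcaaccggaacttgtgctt
*Med19* (chr3:90168679-90168828, plus): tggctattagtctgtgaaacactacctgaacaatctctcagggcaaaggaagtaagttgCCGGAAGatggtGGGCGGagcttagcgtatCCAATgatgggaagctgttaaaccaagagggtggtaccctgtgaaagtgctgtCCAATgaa
*Med28* (chr14:69816116-69816265, minus): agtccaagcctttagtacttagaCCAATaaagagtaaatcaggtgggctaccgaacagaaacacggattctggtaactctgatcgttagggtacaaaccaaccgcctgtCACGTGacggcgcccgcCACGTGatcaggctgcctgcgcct
*Med31* (chr10:57338890-57339039, minus): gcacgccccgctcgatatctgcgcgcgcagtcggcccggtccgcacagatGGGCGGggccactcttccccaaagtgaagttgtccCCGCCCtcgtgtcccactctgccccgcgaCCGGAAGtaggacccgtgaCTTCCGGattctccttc
*Med12* (chrX:70444660-70444809, plus): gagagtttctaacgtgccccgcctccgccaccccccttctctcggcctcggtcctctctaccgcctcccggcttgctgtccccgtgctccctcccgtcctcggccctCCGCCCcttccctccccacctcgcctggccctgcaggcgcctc
*Med17* (chr8:20401994-20402143, minus): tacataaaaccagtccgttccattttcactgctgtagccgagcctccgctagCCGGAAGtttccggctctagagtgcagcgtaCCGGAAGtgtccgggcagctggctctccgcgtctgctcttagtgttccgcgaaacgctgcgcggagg
*Polr2h* and *Med7* held the NRF1 letters, and in *Med7* the matches on both strands overlap. *Med17* and *Med31* each held the ETS letters at 2 places and *Med19* at 1 place. Over the 48 members with an entry, 10 held the ETS letters (20.8%, against 5.83% of all 33469 promoter windows of this length), 4 held NRF1 (8.33% against 1.70%) and 29 held the GC box (60.4% against 26.0%). The CCAAT box was found in 14 members (29.2% against 23.5%), the E-box in 5 (10.4% against 3.74%), YY1 in 1 (2.08% against 0.780%) and the TATA box in 1 (2.08% against 8.0%). The 33469 windows were not matched to the members for expression or gene type, so these shares do not show a trait particular to the members. Such matches describe letters and are not evidence of binding.

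The counts on genes summed to between 15405499 and 17936544 per library, and 15028 genes passed the filter on low counts. Levels are given as CPM, counts scaled to a common library total after TMM normalization, and the difference between groups as a log2 fold change (*Thop1*-KO minus WT) with its standard error (SE). A gene was called higher or lower in *Thop1*-KO at an adjusted p under 0.05 in the quasi-likelihood test of edgeR, adjusted after Benjamini and Hochberg over all genes tested. With 1 WT library, the spread comes from the 3 subclones alone. An exact permutation test of 3 against 1 could give no one-sided p below 0.25. The subclones, unlike the parent line, were picked as colonies after puromycin selection. Genotype, this selection, culture and library preparation therefore cannot be told apart for any gene below. *Thop1* itself (chr7:11501146-11513581) stood at 110 CPM in #1, 92.5 in #2 and 149 in #3, against 370 in WT. Its RNA was thus lower but still present in every subclone (log2 fold change -1.66, SE 0.29, edgeR adjusted p = 0.0187). The naive ESC markers *Pou5f1*, *Nanog*, *Sox2*, *Klf4*, *Tfcp2l1*, *Esrrb* and *Tdgf1* were present in all libraries. They summed to 5654 to 6742 CPM in the subclones and 5985 in WT, mostly from *Pou5f1* (4842, 3889 and 4776 CPM against 4794). *Esrrb* (330, 286 and 328 CPM against 15.9) and *Tfcp2l1* (231, 254 and 279 against 34.5) were called higher, and the others were not called. The 7 fibroblast genes in the table, a list for feeder cells, summed to 321, 641 and 413 CPM in #1, #2 and #3 and to 199 in WT, with *Dcn*, *Lum* and *Thy1* at 0 everywhere. Primitive endoderm genes summed to 7.79 to 10.4 CPM in the subclones and 7.67 in WT, and early differentiation genes to 5.31 to 8.94 and 13.8, with *Nes* called lower (0.358, 0.735 and 0.167 CPM against 8.48). The part of these markers in the results below was not tested, and in bulk RNA fewer cells of a type cannot be told apart from less RNA per cell.

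Of the 57 members, 56 passed the filter, and 8 of them differed between *Thop1*-KO and WT. Higher in *Thop1*-KO were 3 Mediator genes, *Med1*, *Med17* and *Med12*, whereas *Polr2h* and 4 Mediator genes, *Med7*, *Med19*, *Med28* and *Med31*, were lower. These counts compare with 8.62% of all tested genes called higher and 5.17% called lower. In all, 14.3% of the members were called, near the 13.8% of all genes. Among the members, 21 had an unadjusted p under 0.05 (37.5%, against 34.0% of all genes), and 6 of these were positive and 15 negative. The signs were nearly balanced, with 26 positive and 30 negative log2 fold changes and a median of -0.11, against a median of 0.06 over all genes. The WT library lay below all 3 subclones for 18 members, above all 3 for 26 and among them for 12. For all tested genes WT lay below in 38.1% and above in 37.6%.

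**Figure D1:**
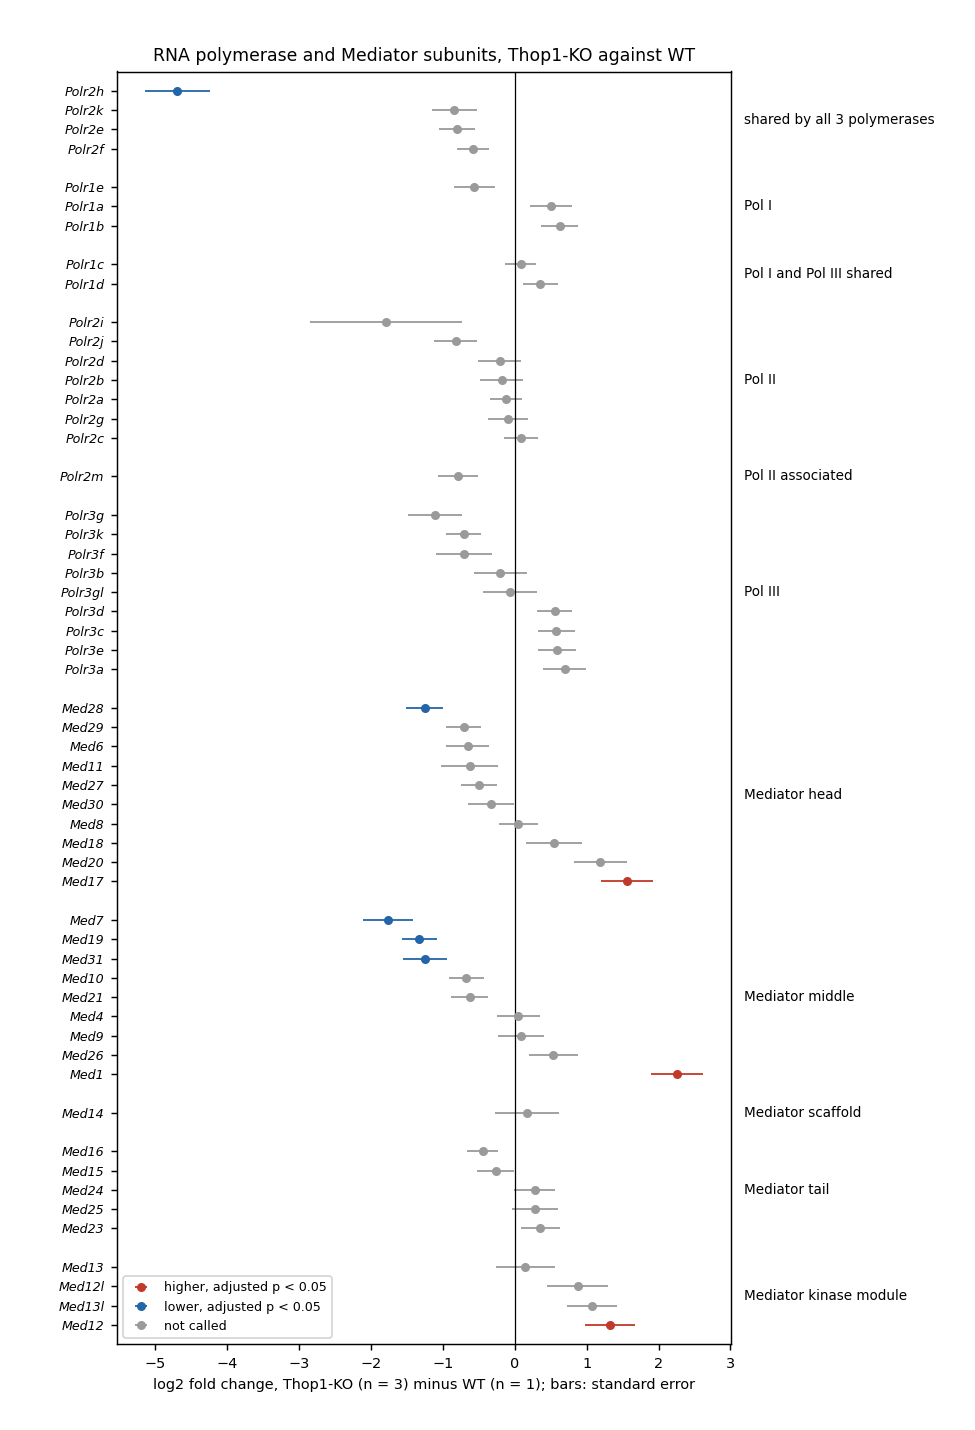
Log2 fold change (*Thop1*-KO, n = 3, minus WT, n = 1) of the tested members, 1 of them left out, grouped by complex and module, with bars for the standard error. Red points are called higher, blue points lower and grey points not called. *Polr2h* stands far to the left at -4.69, *Med1* is the rightmost point at 2.26, and the called Mediator genes lie on both sides of 0.

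*Polr2h* showed the largest change of any member. It encodes RPABC3, a small subunit common to Pol I, Pol II and Pol III, and lies on chr11:82856529-82860977 (minus strand) in the deposited annotation. Its level was 0.417 CPM in #1, 0.735 in #2 and 0.501 in #3, against 14.5 in WT, from raw counts of 7, 13, 9 and 215. All 3 subclones were thus close to the detection floor, whereas WT was well above it, and the groups did not overlap. The subclones held 3.81% of the WT level on average (log2 fold change -4.69, SE 0.45, edgeR adjusted p = 0.00678). Of the 8 called members it alone kept its call without subclone #3 (adjusted p = 0.0185), and over all alternatives run its adjusted p ranged from 1.56e-09 to 0.0185.

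Genes that share a position or a description with *Polr2h* were read beside it. *Polr2h* lies inside *Map3k13* on the same strand, and *Map3k13* stood at 2.74, 2.32 and 3.12 CPM in the subclones and 1.82 in WT, which did not pass the test (log2 fold change 0.58). A gene described in the table as RPABC3-like, *LOC100912534* (chr11:83878006-83882117), had counts of 0, 1 and 0 in the subclones and 0 in WT. Adding these to *Polr2h* left the log2 fold change at -4.65. The copy is known here by its description alone, and its sequence was not compared with that of *Polr2h*. Among the 10 tested genes nearest to *Polr2h*, chosen after its value was seen and all within 188 kb, 1 was called higher (*RGD1562339*, log2 fold change 3.25) and 0 lower by edgeR, and 7 had positive values.

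The other members common to all 3 polymerases, *Polr2e*, *Polr2f* and *Polr2k*, had negative values as well but did not pass the test. *Polr2l* was not among the members. *Polr2e*, which encodes RPABC1, measured 287, 274 and 209 CPM in the subclones and 449 in WT (log2 fold change -0.81, edgeR adjusted p = 0.0751). *Polr2f*, which encodes RPABC2, measured 119, 108 and 106 CPM against 166 (log2 fold change -0.58, adjusted p = 0.124). *Polr2k*, which encodes RPABC4, measured 22.5, 18.9 and 15.7 CPM against 34.1 (log2 fold change -0.84, adjusted p = 0.117). In each of these genes WT was the highest library, as for 37.6% of all genes. Each had an unadjusted p under 0.05, as did 34.0% of all genes. The 4 common subunits among the members had a median length of 708.5 bases, against 2096 over all genes. After a correction for gene length the values were -0.80 for *Polr2e*, -0.27 for *Polr2f* and -0.50 for *Polr2k*. Without subclone #2 all 4 were called lower by edgeR, with adjusted p between 1.85e-05 and 0.0494. That setting called 16.4% of all genes lower. Over the other alternatives the adjusted p of *Polr2e*, *Polr2f* and *Polr2k* reached at most 0.277, 0.441 and 0.385.

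None of the members particular to a single polymerase, or common to Pol I and Pol III, was called by edgeR or by limma. Outside the rule for members were 3 Pol I subunits under older symbols, given below. Of those, 1 (*Znrd1*) was called lower by both tests. *Polr1a* and *Polr1b*, which form the catalytic core of Pol I, had log2 fold changes of 0.50 (SE 0.29) and 0.62 (SE 0.26). *Polr1b* measured 128, 120 and 151 CPM in the subclones and 86.2 in WT (edgeR adjusted p = 0.146), and *Polr1a* 113, 127 and 88.4 against 77.6 (adjusted p = 0.268). WT was the lowest library for both, as for 38.1% of all tested genes. *Polr1e*, a subunit that helps Pol I start transcription, went the other way, with 27.5, 31.0 and 23.7 CPM against 40.4 (log2 fold change -0.56, adjusted p = 0.212). *Polr1c* and *Polr1d*, the assembly pair that Pol I shares with Pol III, had log2 fold changes of 0.08 (-0.02 under upper quartile scaling) and 0.36. Of these 5 genes, 1 (*Polr1b*) had an unadjusted p under 0.05 and DESeq2 called 0.

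The core of Pol II showed small differences. *Polr2a*, the largest subunit, whose C-terminal repeats are phosphorylated during transcription, measured 153, 158 and 165 CPM in the subclones and 172 in WT (log2 fold change -0.12, SE 0.22, edgeR adjusted p = 0.736). *Polr2b*, its partner at the active site, measured 67.9, 90.7 and 61.4 CPM against 83.0, with WT among the subclones (log2 fold change -0.18, SE 0.30). *Polr2c*, part of the assembly core, had a log2 fold change of 0.08 (-0.02 under upper quartile scaling), and the stalk subunits *Polr2d* and *Polr2g* had -0.21 and -0.09 (0.10 for *Polr2g* after the correction for length). *Polr2j*, the partner of *Polr2c* in assembly, measured 68.1, 46.2 and 47.8 CPM against 95.4 (log2 fold change -0.82, adjusted p = 0.108). Of the 7 Pol II subunits, 6 had negative values, 1 (*Polr2j*) had an unadjusted p under 0.05, and DESeq2 called 0.

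*Polr2i*, which encodes RPB9, a subunit with a role in fidelity, cannot be read with confidence. It had 2, 4 and 6 raw counts in the subclones and 12 in WT (log2 fold change -1.79, SE 1.06). A gene described as the same subunit, *LOC103690054* (chr1:88686731-88688258), had 649, 9 and 12 reads counted in the subclones and 17 in WT. Adding the 2 turned the value to 2.79 (edgeR adjusted p = 0.426), entirely through the 649 counts of subclone #1. *Polr2m*, which encodes a protein that associates with Pol II and competes with the general factor TFIIF, measured 146, 216 and 157 CPM against 299 in WT. WT was the highest library by a wide margin, but the gene was not called (log2 fold change -0.79, SE 0.28, adjusted p = 0.101). It was called lower after a correction for gene length (log2 fold change -1.10, adjusted p = 0.0408) and without subclone #2 (adjusted p = 0.00221), within a range up to 0.301 over the alternatives.

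The 10 Pol III subunits were split evenly, 5 positive and 5 negative, with a median of 0.05. By edgeR 0 were called, 2 (*Polr3g* and *Polr3k*) had an unadjusted p under 0.05, and DESeq2 called 1. *Polr3a*, its largest subunit, measured 57.4, 43.7 and 52.1 CPM in the subclones and 31.6 in WT (log2 fold change 0.69, SE 0.29, edgeR adjusted p = 0.151). *Polr3b*, which completes the active site, measured 27.8, 50.1 and 35.2 CPM against 43.3, with WT among the subclones (log2 fold change -0.20). *Polr3c*, *Polr3d* and *Polr3e*, which belong to the subcomplexes for initiation and termination, had close values of 0.58, 0.55 and 0.58. WT was the lowest library for each, as for 38.1% of all tested genes. *Polr3k*, a subunit for transcript cleavage at termination, measured 74.9, 78.4 and 64.5 CPM against 119 (log2 fold change -0.71, adjusted p = 0.0939). *Polr3f*, a partner of *Polr3c* in initiation, had a log2 fold change of -0.71 (SE 0.39).

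*Polr3g* and *Polr3gl* encode alternative versions of the same Pol III subunit, of which *Polr3g* is known as the form of pluripotent cells. *Polr3g* measured 15.9, 28.4 and 18.4 CPM in the subclones and 45.0 in WT. WT was above every subclone, although #2 lay nearer to it than the others did (log2 fold change -1.11, SE 0.37, edgeR adjusted p = 0.0908). DESeq2 put it just past the threshold (adjusted p = 0.0491), and its adjusted p over the alternatives ran from 0.00219 without #2 to 0.265 without #3. *Polr3gl* overlapped between the groups, at 6.50, 6.11 and 5.68 CPM against 6.39 (log2 fold change -0.07, SE 0.38). Per length, the *Polr3g* level was 1.55, 2.96 and 2.06 times that of *Polr3gl* in the subclones and 4.48 times in WT.

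**Figure D2:**
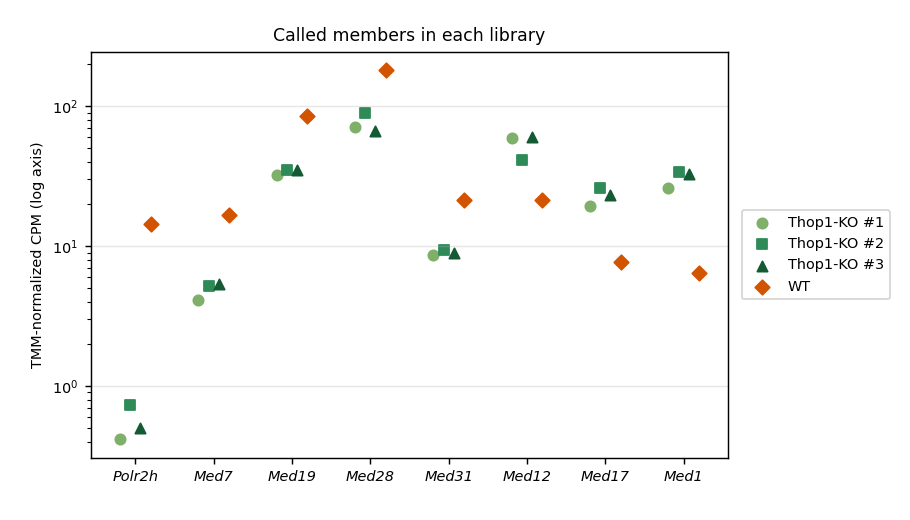
TMM-normalized CPM (log axis) of the 8 called members in each of the 3 *Thop1*-KO subclones and in WT, 1 point per library. WT lies above the subclones for the 5 genes on the left and below them for the 3 on the right, and *Polr2h* has the widest gap, from 14.5 in WT to 0.735 or less.

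Mediator held 7 of the 8 calls, spread over its head, middle and kinase modules and in both directions. Of its 29 tested genes, 3 were called higher (10.3%, against 8.62% of all genes) and 4 lower (13.8%, against 5.17%), 16 were positive and 13 negative, and the median was 0.05. The 27 polymerase genes had 0 calls higher and 1 lower by edgeR, with a median of -0.18, although 1 had an unadjusted p under 0.05 in the positive and 8 in the negative direction. DESeq2, which called 14.2% of all genes higher and 7.29% lower, called 0 polymerase genes higher and 2 lower (*Polr2h* and *Polr3g*). By limma, with 6.85% and 5.85% of all genes, the counts were 0 and 1. The difference between polymerase and Mediator genes was not tested.

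*Med1* had the largest increase. It is the subunit that nuclear receptors contact, sits in the middle module and lies on chr10:86103600-86144880 (minus strand). Its level was 25.9 CPM in #1, 33.9 in #2 and 32.9 in #3, against 6.46 in WT, from 435, 599, 591 and 96 counts. The subclones were close to each other and all far above WT. The change was 4.78-fold (log2 fold change 2.26, SE 0.37, edgeR adjusted p = 0.0156), and the log2 value stayed between 2.19 and 2.35 whichever subclone was left out. Over the alternatives the adjusted p ranged from 1.45e-06 to 0.0696, the highest without #3.

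Of the 8 other genes of the middle module, 3 were called lower, at values from -1.76 to -1.25, and the remaining ones were not called. Over the 9 genes of the module, 33.3% were called lower and 11.1% higher, against 5.17% and 8.62% of all genes. *Med7*, a core subunit of the middle module (chr10:31532250-31536405, plus strand), measured 4.11, 5.20 and 5.40 CPM in the subclones and 16.7 in WT. The subclones lay within a narrow band at about 29.4% of WT (log2 fold change -1.76, SE 0.35, edgeR adjusted p = 0.0258). *Med31*, a small conserved subunit (chr10:58780597-58784374, minus strand), measured 8.65, 9.39 and 8.96 CPM against 21.4 (log2 fold change -1.25, SE 0.31, adjusted p = 0.0434). Its subclones were nearly identical to each other, and WT stood apart. *Med19*, which lies where the middle module meets Pol II (chr3:72080630-72091150, plus strand), measured 32.1, 34.7 and 35.1 CPM against 85.4. Here too WT was the highest library and the subclones agreed closely (log2 fold change -1.33, SE 0.24, adjusted p = 0.0203). *Med19* overlaps the opposite-strand gene *Tmx2* by 450 bases, and *Tmx2* stood at 188, 117 and 149 CPM in the subclones and 33.7 in WT, the reverse order. Since strand-specific counting is not stated, reads in the overlap cannot be told apart.

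Of the other middle subunits, *Med10* and *Med21*, both core components, had log2 fold changes of -0.68 and -0.63. WT was the highest library for both, as for 37.6% of all tested genes, and neither was called (edgeR adjusted p = 0.109 and 0.141). *Med10* measured 115, 130 and 99.3 CPM against 183. *Med21* measured 45.3, 52.4 and 42.2 CPM against 72.1. For *Med4* and *Med9* WT lay among the subclones, with values of 0.05 and 0.08 that turned to -0.05 and -0.02 under upper quartile scaling. *Med26*, the subunit through which Mediator recruits elongation factors, measured 28.3, 22.4 and 33.3 CPM against 19.3 (log2 fold change 0.54, adjusted p = 0.306).

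In the head module, 1 of the 10 tested genes was called in each direction. These shares of 10% compare with 8.62% higher and 5.17% lower over all genes. *Med17*, the central subunit of the head (chr8:13819563-13835168, minus strand), measured 19.4 CPM in #1, 26.0 in #2 and 23.2 in #3, against 7.74 in WT. All subclones were above WT, and the change was 2.95-fold (log2 fold change 1.56, SE 0.36, edgeR adjusted p = 0.0377). *Med28*, a metazoan head subunit (chr14:70089225-70098021, minus strand), measured 70.5, 89.7 and 66.6 CPM against 180. WT was the highest library at more than any subclone reached (log2 fold change -1.25, SE 0.26, adjusted p = 0.0278). *Med20*, a head subunit on the movable jaw with *Med18*, was the nearest to a call among the other head genes, with 228, 128 and 186 CPM against 79.3 (log2 fold change 1.19, SE 0.37, adjusted p = 0.0761), and DESeq2 called it (adjusted p = 0.0138, within a range from 0.000728 to 0.195). Its partner *Med18* measured 13.3, 9.56 and 13.7 CPM against 8.34 (log2 fold change 0.55, SE 0.39), and *Med8*, which anchors both, had a value of 0.05 (-0.05 under upper quartile scaling).

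*Med29*, *Med6*, *Med11*, *Med27* and *Med30* of the head had values from -0.71 to -0.33, and none was called by edgeR. WT was above all subclones for each, as for 37.6% of all tested genes. *Med29* measured 41.6, 39.5 and 40.4 CPM against 66.4 (adjusted p = 0.0942), and *Med6* 15.3, 17.93 and 16.0 against 25.9 (adjusted p = 0.172). The subclones agreed least for *Med11*, at 13.9, 26.9 and 20.4 CPM, against 31.6 in WT. *Med22* was the only member that failed the filter, with raw counts of 5, 0 and 2 in the subclones and 0 in WT. A gene described as *Med22*-like, *LOC100911917* (chr3:4861753-4866833), had 35, 52 and 260 reads counted in the subclones and 87 in WT, and the sum of both did not pass the test (log2 fold change 0.18, edgeR adjusted p = 0.914).

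The kinase module holds a cyclin-dependent kinase to Mediator and is activated by *Med12* together with cyclin C. All 4 members had positive values, with a median of 0.97. Their partners *Ccnc* and *Cdk19*, outside the rule for members, had negative values of -0.70 and -0.48, and neither was called. *Med12* (chrX:71174699-71197812, plus strand) measured 59.4 CPM in #1, 41.2 in #2 and 59.8 in #3, against 21.3 in WT. Every subclone was above WT, #2 least so, and the change of 2.51-fold was only just past the threshold (log2 fold change 1.33, SE 0.35, edgeR adjusted p = 0.0499). *Med13l*, a version of the subunit that links the module to Mediator, measured 197, 136 and 230 CPM against 88.9, in the same order but without a call (log2 fold change 1.08, SE 0.35, adjusted p = 0.0842). DESeq2 called *Med13l* (adjusted p = 0.0236, within a range from 0.00105 to 0.248). *Med12l* and *Med13*, the other versions of these subunits, had values of 0.87 (SE 0.42, adjusted p = 0.191) and 0.15 (SE 0.41, adjusted p = 0.824).

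The values of these long genes changed with a correction for gene length. After it the median of the 4 was 0.57, *Med13* turned to -0.23, and *Med12* was no longer called (log2 fold change 0.96, adjusted p = 0.126, within a range from 0.00116 to 0.185). Per length, *Med12* was 4.73 to 10.4 times the level of *Med12l* in the subclones and 5.30 times in WT, so the ratios overlapped. *Med13l* was 17.4 to 31.5 times the level of *Med13* in the subclones and 13.4 times in WT.

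*Med14*, the backbone that joins head, middle and tail, measured 7.33, 11.6 and 6.73 CPM against 7.60, with WT among the subclones (log2 fold change 0.17, SE 0.45, and -0.23 after the correction for length). Under the module assignment used here, the tail module, which receives many transcription factors, had the smallest values of the modules. Its 5 genes lay between -0.45 (*Med16*) and 0.36 (*Med23*), edgeR, DESeq2 and limma called 0 of them, and 0 had an unadjusted p under 0.05. *Med16*, which overlaps several tested genes, measured 118, 119 and 121 CPM against 163, and its value was -0.74 after the correction for length. *Med23*, which contacts the ERK-responsive factor ELK1, measured 37.1, 39.8 and 42.1 CPM against 31.0. *Med24* and *Med25* both had 0.28, with WT among the subclones, and *Med15* had -0.27.

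**Figure D3:**
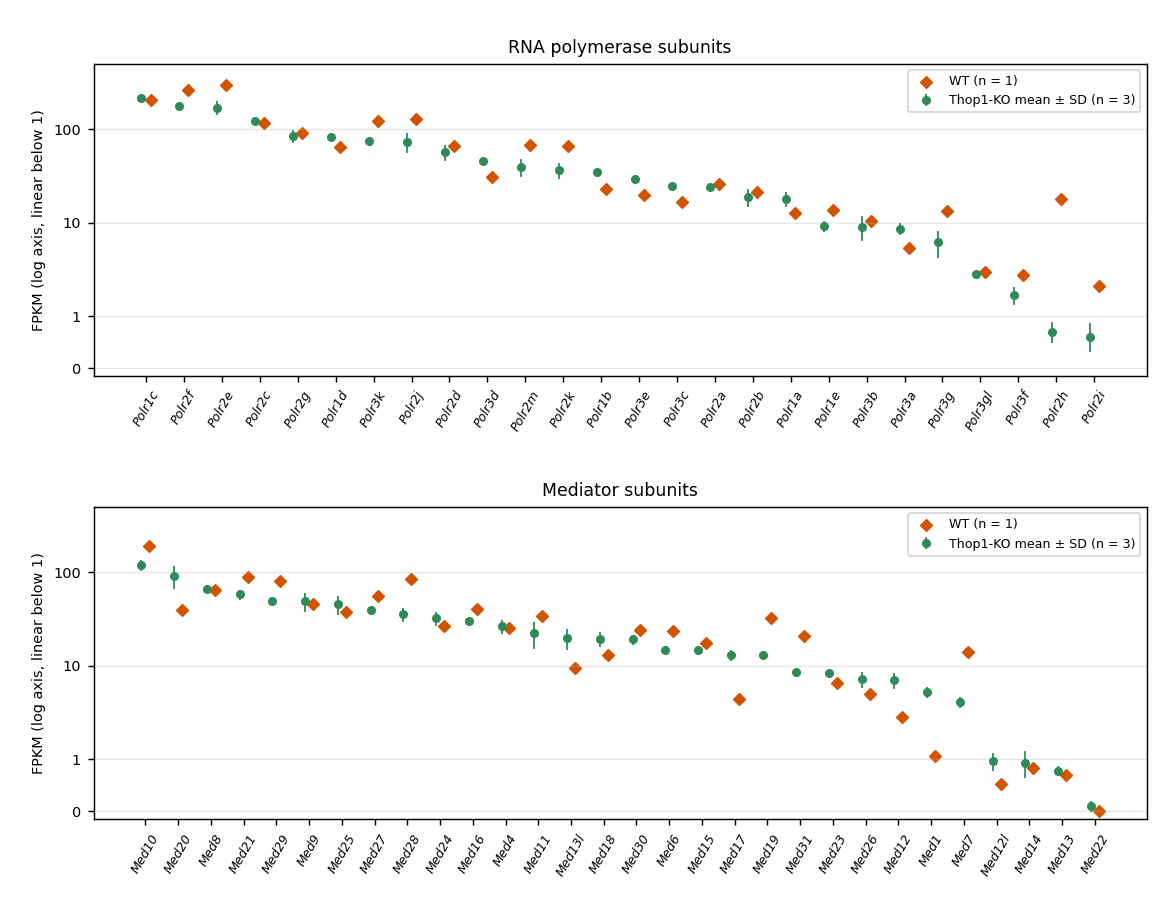
Deposited FPKM (log axis, linear below 1) of the polymerase genes, 1 of them left out (top), and the 30 Mediator genes (bottom), ordered by the *Thop1*-KO mean. Green points are the mean and SD of the 3 subclones and orange diamonds the WT library, and the members run from under 1 to 295 FPKM.

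Per length, the members covered a wide range of levels. Their median FPKM was 23.3, 24.4 and 24.0 in #1, #2 and #3 and 24.0 in WT. The polymerase genes alone had medians of 33.3, 32.9 and 29.6 in the subclones and 26.1 in WT, and the Mediator genes 15.9, 16.1 and 20.3 against 23.8. *Polr2e*, *Polr1c* and *Polr2f* were among the highest, at 295, 205 and 262 FPKM in WT and 168 ± 28.8, 217 ± 7.54 and 175 ± 12.2 in the subclones (mean ± SD, n = 3). *Med10* led the Mediator genes, at 191 FPKM in WT and 120 ± 16.6 in the subclones. At the low end, *Med13*, *Med14*, *Med12l* and *Med22* stayed under 1 FPKM in WT, at 0.699, 0.833, 0.531 and 0. *Polr2h* went from 18.1 FPKM in WT, inside the main range, to 0.687 ± 0.206 in the subclones, where it stood next to *Polr2i* at the bottom of the polymerase genes.

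The spread among the subclones was small for these genes. The median SD of log2(CPM + 0.5) among the 3 subclones was 0.20 over the members tested and 0.29 over all genes tested. On the same scale, 0 of the 56 members differed by more than 1 between any 2 subclones, compared with 4.84% to 14.8% of all genes. Without this addition *Polr2i*, with 2, 4 and 6 counts, differed up to 2.80-fold between subclones. Against WT, 15 members in #1, 9 in #2 and 13 in #3 differed by more than 1, compared with 30.0% to 38.0% of all genes. By these 2 measures the members differed less than genes at large, as a description without a test and without matching for level. Their share called by edgeR, 14.3%, was near the 13.8% of all genes.

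**Figure D4:**
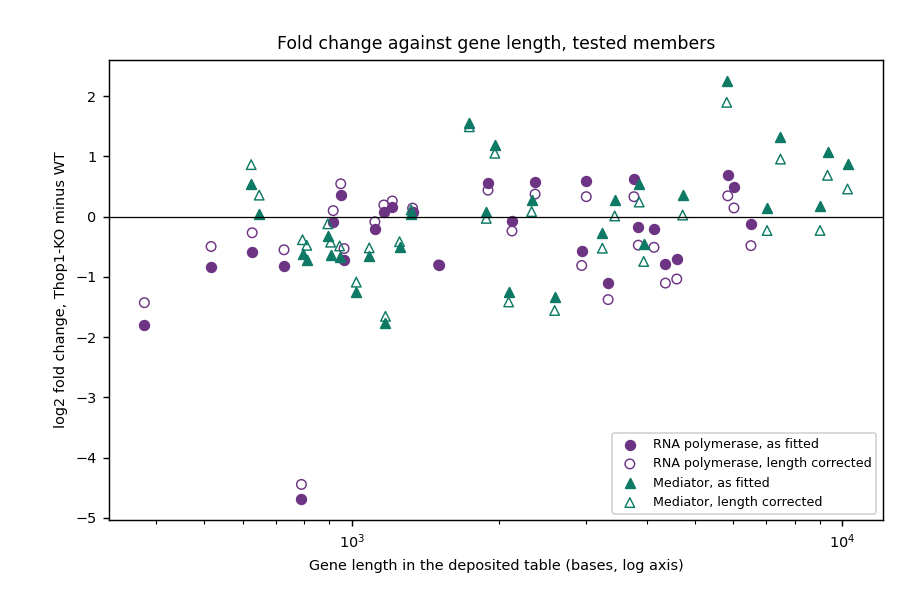
Log2 fold change (*Thop1*-KO minus WT) of the 56 tested members against gene length in the deposited table (bases, log axis). Filled symbols are the values as reported and open symbols the values after a loess correction for length, with circles for polymerase genes and triangles for Mediator genes. As reported, 18 of the 28 shorter members lie below 0 and 16 of the 28 longer members above. The correction narrows the slope with length.

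Fold change varied with gene length among the members. Spearman's rho of the log2 fold change with length was 0.49 over the 56 members tested, 0.41 over the polymerase genes and 0.51 over the Mediator genes, against 0.20 over all genes, which share libraries and length bias and are not independent. The 28 shorter members (378 to 1896 bases) had 10 positive and 18 negative values with a median of -0.54, where all genes of such lengths had a median of -0.22. The 28 longer members (1958 to 10248 bases) had 16 positive and 12 negative values with a median of 0.22, against 0.25. After the correction the medians were -0.33 and -0.11, and rho was 0.21. With the correction edgeR called 7.35% of all genes higher and 5.75% lower. Of the members, *Med1* and *Med17* were higher and *Polr2h*, *Med7*, *Med19*, *Med28* and *Polr2m* lower, and *Med12* and *Med31* (adjusted p = 0.0624, within a range from 0.00850 to 0.203) were no longer called.

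**Figure D5:**
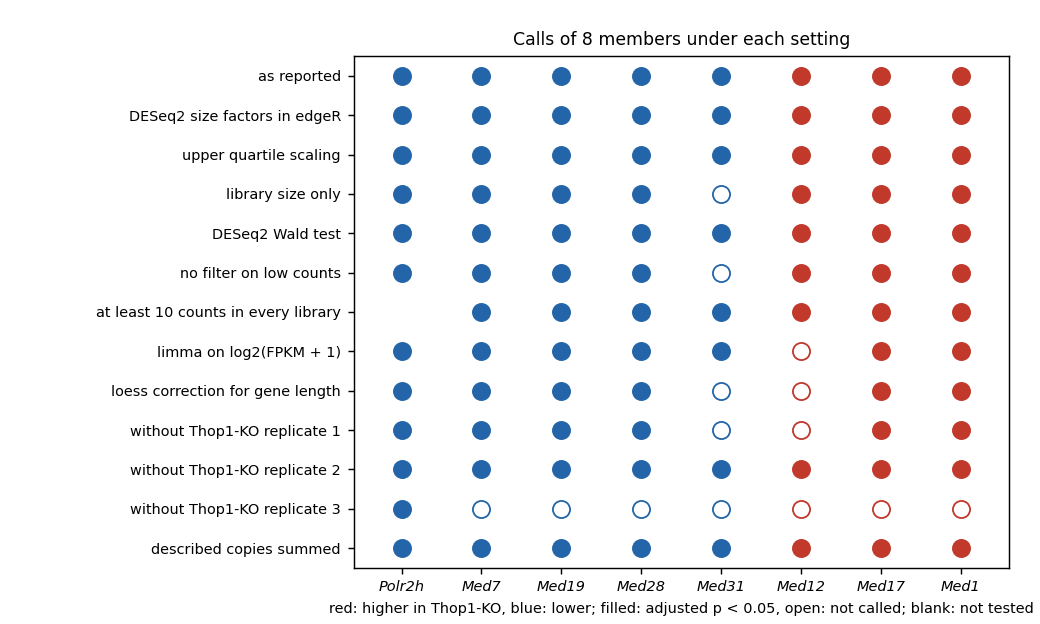
Calls of the 8 members (columns) under the reported setting and each alternative (rows). Red is higher and blue lower in *Thop1*-KO, filled circles have an adjusted p under 0.05, open circles are not called, and a blank was not tested. The direction is the same in every cell, and the row without subclone #3 keeps *Polr2h* alone.

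How many members were called depended on the subclones in the fit. Without #3, 0 members were higher and 1 lower by edgeR (4 positive and 5 negative at an unadjusted p under 0.05), while 2.16% of all genes were called higher and 0.625% lower. Without #2, 7 members were higher and 16 lower, while 20.6% and 16.4% of all genes were called. The members added without #2 were *Med20*, *Med13l*, *Polr1b* and *Polr3a* on the higher side, and *Polr2e*, *Polr2f*, *Polr2k*, *Polr2j*, *Polr2m*, *Polr3g*, *Polr3k*, *Med10*, *Med11*, *Med21* and *Med29* on the lower side. Without #1, *Med12* and *Med31* were lost (adjusted p = 0.0706 and 0.0684). The adjusted p without #3 was 0.110 for *Med7*, 0.103 for *Med19*, 0.129 for *Med28*, 0.203 for *Med31*, 0.158 for *Med17* and 0.185 for *Med12*, the highest of all alternatives for each, and the lowest were 0.00241, 0.00100, 0.000357, 0.00850, 0.00264 and 0.00116. DESeq2 called *Med20* and *Med13l* higher and *Polr3g* lower in addition to the 8.

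Related genes were taken from a list of 109, most of them factors that work with these enzymes. The list also held 3 Pol I subunits under older symbols and 6 mitochondrial transcription genes. Of the 109 genes, 106 were in the table and 104 were tested. Of these, 7 were called higher (6.73%) and 3 lower (2.88%), against 8.62% and 5.17% of all genes, 41 were positive and 63 negative, and the median was -0.19. The balance turned to 5 higher and 7 lower with the length correction and to 17 and 20 without #2. *Rrn3*, which brings Pol I to the ribosomal DNA promoter, measured 25.3, 23.0 and 28.2 CPM in the subclones and 2.49 in WT (log2 fold change 3.35, edgeR adjusted p = 0.00769). Every subclone lay far above WT. *Ercc2*, a helicase of TFIIH, and *Aff1* and *Ell2*, parts of the super elongation complex, had log2 fold changes of 2.77, 3.16 and 2.37. *Gtf3c1* and *Gtf3c4* of the Pol III factor TFIIIC and *Snapc5* of the snRNA activator complex had 1.87, 1.24 and 1.76. After the length correction *Ell2*, *Gtf3c1* and *Gtf3c4* were no longer called (adjusted p = 0.0561, 0.0532 and 0.0854, within ranges up to 0.182, 0.0707 and 0.142 without #3), and without #3 *Rrn3*, *Ercc2* and *Aff1* alone kept their calls. Called lower were *Larp7*, which holds the 7SK RNA (-1.91), *Tfb2m*, a mitochondrial transcription factor (-1.68), and *Znrd1*.

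*Znrd1*, *Twistnb* and *Cd3eap* are older symbols of Pol I subunits and so were outside the rule for members. *Znrd1* measured 44.7, 37.8 and 40.0 CPM against 87.5 in WT (log2 fold change -1.10, edgeR adjusted p = 0.0344). *Twistnb*, at 3.46, 6.56 and 5.96 CPM against 16.3, just missed the threshold (log2 fold change -1.61, adjusted p = 0.0519), and *Cd3eap* had -0.72. WT was the highest library for all 3, as for *Polr1e*, and the lowest for *Polr1a* and *Polr1b*. Over all tested genes WT was the highest in 37.6% and the lowest in 38.1%. *Ccnc* and *Cdk19*, partners of *Med12* in the kinase module, had values of -0.70 and -0.48 with WT above every subclone, and neither was called. *Cdk8*, *Gtf2a2* and *Taf3* of the list were not matched by symbol.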

How the data were processed

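RNA was prepared with a NEBNext Ultra kit after poly(A) selection, per the labels. The authors trimmed reads with the FASTX toolkit. The submitters' processing notes name HISAT2 2.0.5 and featureCounts 1.5.0-p3, whereas the genome build, annotation release and strand setting are not given in the sources used here. The authors deposited raw counts per gene, used for all main tests, and FPKM values, which are those counts scaled by gene length and a single factor for each library. Genes that overlap or have close copies may share reads.

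The main test was that of edgeR 4.0.16, run in R 4.3.3 (filterByExpr with a minimum count of 10, TMM, quasi-likelihood test, Benjamini-Hochberg adjustment over the 15028 genes tested, threshold 0.05). The dispersion comes from the 3 subclones, because WT has 1 library, and nothing in the labels says that the subclones were grown in parallel with it. Library totals of 15405499 to 17936544 limit the precision of genes with few counts. A chi-square comparison of the counts of each pair of libraries gave 18.2 to 53.3 per degree of freedom between subclones and 101 to 149 with WT, so no library was a duplicate. Alternatives were DESeq2 1.42.0, other scalings, filters and call rules, limma 3.58.1 on log2(FPKM + 1), a loess correction for gene length (span 0.3), leaving out each subclone, and, chosen after the data were seen, the sum of a member and a gene described as its copy. Statistics were tested on simulated data. Python 3.11.15 (pandas 2.3.3, scipy 1.17.1, matplotlib 3.10.9) was used for tables and plots.

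The members, roles, marker lists and list of related genes were chosen with earlier results of these data known. The genes to be named were *Thop1*, every called member, the tested members with the largest and smallest log2 fold change of each role group, the catalytic pairs and paralogue pairs, *Med1*, *Med14*, members that failed the filter, and up to 8 called related genes in each direction. The remaining members are given for completeness, except 1 polymerase gene that is counted but not reported here by itself. Promoters were matched to RefSeq by symbol.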

Additional observations from a re-analysis of the deposited data

How the results depend on the processing

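No paired analysis was possible because WT has 1 library and its label carries no replicate number. Of 477 values of 40 named genes under the alternatives, 470 kept their direction and 433 kept both direction and side of the threshold; 28 lost a call, 9 gained a call and 7 changed sign. Leaving out each subclone in turn gave 0 to 7 members higher, 1 to 16 lower, 3 to 37 related genes called and 418 to 5572 genes in all. The low ends were without #3 and the high ends without #2. DESeq2 called 5 members higher and 6 lower, while 14.2% and 7.29% of all genes were called, and 16 related genes. An unadjusted edgeR p under 0.05 with a fold of at least 2 gave 5 members higher and 19 related genes. The members lower by this rule were *Polr2h*, *Med7*, *Med19*, *Med28*, *Med31* and *Polr3g*. Of the 15028 genes tested, 4040 passed it (2443 higher and 1597 lower). The sign changes were *Med13* and *Med14* after the length correction (-0.23 each), *Med14* without #2 (-0.11), *Polr1c* and *Polr2c* under upper quartile scaling (-0.0165 and -0.0163), *Polr2c* without #1 (-0.00292) and *Polr2i* with its described copy added (2.79). Without the subclones in turn *Med14* ranged from -0.11 to 0.32 and *Polr2c* from -0.00292 to 0.13. Over the members, 9 changed sign in some alternative, with *Med4*, *Med8*, *Med9* and *Polr2g* in addition to those above, each between -0.09 and 0.10 in all such values. The causes were not tested. *Polr2h* had no value with at least 10 counts in every library, since it failed that filter. *Med31* was not called with library size alone (adjusted p = 0.0589) or with no filter (0.0519), and *Med12* was not called by limma (0.0933). *Polr2h* (7 to 13 counts in the subclones), *Polr2i* and *Med22* are the members that depth limits most.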

Other observations

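The mitochondrial RNA polymerase, *Polrmt*, stands outside the nuclear enzymes and was not a member. It measured 46.6, 39.9 and 54.3 CPM in the subclones and 25.7 in WT, with WT below every subclone (log2 fold change 0.87), and it did not pass edgeR's test. Of the 6 mitochondrial transcription genes tested, 1 was positive and 5 were negative, and *Tfb2m*, at 4.23, 5.77 and 4.34 CPM against 15.3, was the gene called. Among the 16 Pol III initiation factors tested, 3 were called higher (*Gtf3c1*, *Gtf3c4* and *Snapc5*, 18.8% against 8.62% of all genes) and 9 were positive, with a median of 0.04. Without #3 none of the 3 was called (edgeR adjusted p = 0.0707, 0.142 and 0.102), and *Gtf3c1* and *Gtf3c4* were not called after the length correction (0.0532 and 0.0854). *Gtf3c1* measured 180, 110 and 139 CPM in the subclones against 39.1 in WT, and *Snapc5* 31.5, 35.0 and 34.3 against 9.89, so that every subclone was above WT for both. Among the 27 pausing and elongation factors tested, *Aff1* measured 42.4, 30.7 and 44.4 CPM against 4.37, and *Ell2* 3.04, 4.53 and 4.01 against 0.740, whereas *Larp7* stood at 26.6% of WT on average. Of the 30 general factors of Pol II tested, 11 were positive and 19 negative, and *Ercc2* was the gene called, at 113, 102 and 104 CPM in the subclones and 15.6 in WT.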
